A study of Mus musculus with 24 samples.

Results

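Tsc22d3, Klf9, Zbtb16 and Hif3a are genes of transcription regulators that glucocorticoids induce, and they are the 4 rows described here out of the 47480 genes of the deposited count table. They were taken from the table by gene symbol, with earlier results of these data known, and all 4 were among the 14772 genes that passed the filter on low counts. Hif3a, with 0 to 3 counts in every library without Dexa, passed it only through the libraries with Dexa. The samples were 24 mRNA sequencing libraries from wild-type mouse embryonic fibroblasts (MEFs), 3 for each of 8 groups. The groups crossed an siRNA (siCTRL, the control, or siCop1, directed against the ubiquitin ligase receptor Cop1) with a compound (DMSO, the vehicle, or KL001, a small molecule that stabilises cryptochromes) and with Dexa (absent or present). The labels write the agent only as Dexa, the usual short name of the synthetic glucocorticoid dexamethasone. Every group was of the same genotype, every library without KL001 was labelled DMSO and every library carried an siRNA, so no group was untouched cells. For doses, times, siRNA sequences and the age of the embryos the labels used here hold no value. The labels do not say that replicates were separate cultures, so the p-values measure the spread between these samples, which may be technical.

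Glucocorticoids enter the cell and bind the glucocorticoid receptor, encoded by Nr3c1, which moves to the nucleus, binds DNA at glucocorticoid response elements and raises transcription of nearby genes. Among the direct targets are regulators that pass the signal on. Tsc22d3 encodes GILZ, a leucine zipper protein known for binding NF-kappaB and AP-1 subunits and for anti-inflammatory action. Klf9 encodes a zinc finger factor of the Krüppel-like family that binds GC-rich promoters. Zbtb16 encodes PLZF, a BTB zinc finger repressor that recruits corepressors and also works with the ubiquitin ligase scaffold Cul3. Hif3a encodes the third HIF alpha subunit, some forms of which oppose the hypoxia response by competing for shared partners. The design asks whether loss of Cop1 or stabilised cryptochromes, which are described as repressors of the clock and of the glucocorticoid receptor, alter the response of such targets to Dexa.

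In the GENCODE M21 annotation of build GRCm38, Tsc22d3 (ENSMUSG00000031431.13) lies on chrX:140539528-140600659 on the minus strand, with 6 annotated transcripts and a merged exon length of 4341 bases. Klf9 (ENSMUSG00000033863.2) lies on chr19:23141226-23168134 on the plus strand, with 2 transcripts and 4815 exonic bases. Zbtb16 (ENSMUSG00000066687.5) spans chr9:48654297-48836222 on the minus strand, with 2 transcripts and 5283 exonic bases. Hif3a (ENSMUSG00000004328.15) spans chr7:17031507-17062427 on the minus strand, with 4 transcripts and 6710 exonic bases. No other annotated gene had an exon that overlapped an exon of any of the 4 (0 for each). Genes that lie only within their introns were not counted. Reads were counted per gene, so the transcripts of 1 gene could not be told apart.

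The promoters are shown because the 4 genes share the response to Dexa, and TGTTCT is the half-site that the receptor binds. RefSeq promoter windows on GRCm38.p6, running from 250 bases before to 50 bases after a transcript start, were matched for 3 of the 4 genes, with 3 windows for Tsc22d3 and 1 each for Klf9 and Hif3a. The bases before the start are printed 5′ to 3′ on the gene's strand for the farthest upstream Tsc22d3 start (chrX:140600523-140600772), for Klf9 (chr19:23140976-23141225) and for Hif3a (chr7:17062428-17062677), with motif matches in capitals.
Tsc22d3 upstream start: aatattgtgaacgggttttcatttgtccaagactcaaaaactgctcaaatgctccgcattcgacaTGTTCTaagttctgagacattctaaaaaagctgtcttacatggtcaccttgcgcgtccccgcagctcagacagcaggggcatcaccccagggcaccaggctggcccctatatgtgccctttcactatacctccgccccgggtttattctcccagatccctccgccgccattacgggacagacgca
Klf9: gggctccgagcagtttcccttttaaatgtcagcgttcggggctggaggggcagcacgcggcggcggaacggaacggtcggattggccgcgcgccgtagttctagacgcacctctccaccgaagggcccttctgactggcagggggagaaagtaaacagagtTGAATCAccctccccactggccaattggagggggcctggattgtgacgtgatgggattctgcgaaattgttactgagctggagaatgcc
Hif3a: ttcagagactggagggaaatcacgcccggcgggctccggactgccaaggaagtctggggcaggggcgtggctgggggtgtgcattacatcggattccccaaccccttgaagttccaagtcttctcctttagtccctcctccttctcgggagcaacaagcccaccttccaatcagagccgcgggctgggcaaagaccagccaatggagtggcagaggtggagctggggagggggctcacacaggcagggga
The capitals in the Tsc22d3 sequence mark TGTTCT, 185 bases before the start. Those in the Klf9 sequence mark TGAATCA, 89 bases before the start. It is a match to TGANTCA, a search pattern that leaves the middle base open and is looser than the AP-1 motif. The 4 motifs were searched on both strands of the 5 windows. The full palindromic element, AGAACA and TGTTCT with 3 bases between them, which contains the half-site, was in 0 of the 5 windows and in 0.00913% of all 32851 RefSeq windows of 300 bases. TGTTCT was in 1 of the 5 windows (19% of all), TGANTCA in 1 (7.81% of all) and the E-box CACGTG in 0 (7.15% of all). These are letter matches in short windows, and response elements can lie far outside them.

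Libraries held between 21409988 and 27875023 counts, with a median of 25337292. Rfwd2, the symbol under which the table lists Cop1, was lower after siCop1 in all 4 settings, by 2.56, 2.48, 2.44 and 2.53 on the log2 scale. Levels are given in CPM, the counts scaled to a common library size. The summed level of 8 fibroblast markers ran from 35020 to 50770 CPM, carried by Col1a1, Col1a2, Vim and Col3a1, whereas Dcn, another defining marker, reached only 4.58 CPM at most. That sum was lower with siCop1 (35020 to 43670 CPM) than with siCTRL (39920 to 50770 CPM), and lower with KL001 than with DMSO, in siCTRL at 39920 to 44890 against 46630 to 50770 CPM and in siCop1 at 35020 to 37330 against 39950 to 43670 CPM. Heart muscle markers (7 genes) summed to at least 17.0 CPM in 6 libraries, all siCTRL, with 90.6 CPM at most, and to at most 3.03 CPM in the 12 siCop1 libraries. The 5 macrophage markers summed to 2.55 to 7.36 CPM with siCTRL and 4.32 to 15.1 CPM with siCop1. The 6 squamous epithelium markers summed to 6.31 to 16.6 CPM with siCTRL and 8.33 to 72.7 CPM with siCop1, with the highest sums in replicate 1 of siCop1 DMSO Dexa (72.7 CPM) and of siCop1 KL001 Dexa (27.6 CPM). The 5 airway epithelium markers summed to 0.864 to 5.71 CPM with siCTRL and 2.65 to 9.84 CPM with siCop1, and 4 endothelium markers to 0.729 to 2.81 CPM in all libraries. The 4 adipocyte markers summed to 15.8 to 24.3 CPM without Dexa and 52.3 to 81.0 CPM with it, nearly all from Fabp4, while Adipoq, Plin1 and Lep were at or below 0.116 CPM in every library. The part of these markers in the results was not tested. In such bulk samples fewer cells of a type and less RNA per cell cannot be told apart.

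All 4 genes were higher with Dexa under both siRNAs and both compounds. In siCTRL DMSO cells the mean level rose from 100.3 to 662.8 CPM for Tsc22d3, from 62.9 to 123 CPM for Klf9, from 3.59 to 62.1 CPM for Zbtb16 and from 0.0674 to 3.33 CPM for Hif3a. Divided by exon length, the order of the levels in siCTRL DMSO cells without Dexa was Tsc22d3 (23.1 CPM per kilobase), Klf9 (13.1), Zbtb16 (0.679) and Hif3a (0.01). With Dexa the order was the same, at 153, 25.6, 11.8 and 0.496 CPM per kilobase. The log2 change with Dexa in siCTRL DMSO cells, by contrast, was largest for the least abundant gene, Hif3a, and smallest for Klf9. In this contrast 26.8% of all genes tested changed, and 12.7% of all genes tested rose, where "changed" means an adjusted p below 0.05 in the quasi-likelihood test of edgeR (Benjamini-Hochberg over all genes tested), which is two-sided and used throughout. In the siCTRL KL001, siCop1 DMSO and siCop1 KL001 settings 26.8%, 23.7% and 24.5% of all genes tested changed, and 12.7%, 12% and 12.1% rose.

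**Figure D1:**
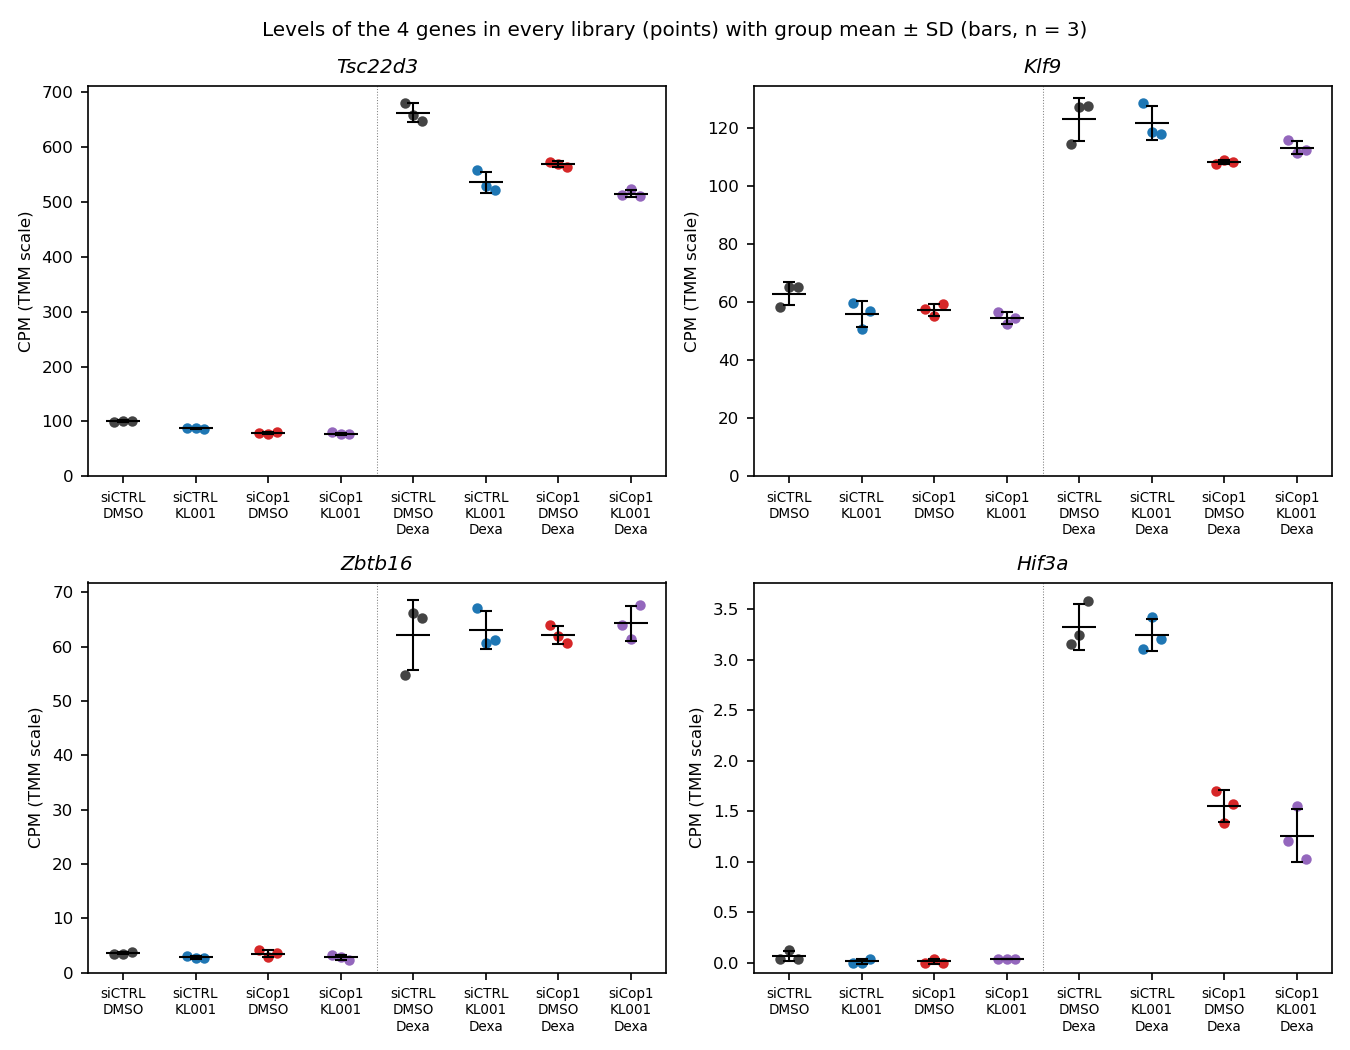
Level of each gene in CPM (vertical axes, linear, 1 panel per gene) in the 24 libraries, by group on the horizontal axis, with the groups without Dexa to the left of the dotted line. Points are libraries and bars are the group mean ± SD (n = 3). Every library with Dexa lies above every library without it, and the Hif3a points with siCop1 and Dexa (1.02 to 1.70 CPM) lie below those with siCTRL and Dexa (3.11 to 3.59 CPM).

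Tsc22d3 was the most abundant of the 4 in every group. Without Dexa the 3 siCTRL DMSO libraries read 98.0, 101 and 101 CPM, the siCTRL KL001 libraries 87.6, 87.6 and 86.5 CPM, the siCop1 DMSO libraries 79.6, 77.8 and 81.3 CPM and the siCop1 KL001 libraries 79.8, 76.4 and 77.1 CPM. With Dexa the same order of groups gave 681, 659 and 648 CPM, then 558, 528 and 522 CPM, then 574, 570.0 and 564 CPM, then 512, 523 and 511 CPM. Both with and without Dexa the siCTRL DMSO libraries were the highest and did not overlap with any other group. Here and below, the share of all genes whose groups separate in this way was not counted. The log2 change with Dexa was 2.73 (SE 0.031, adjusted p = 5.28e-32) in siCTRL DMSO, 2.62 (SE 0.031, adjusted p = 1.91e-31) in siCTRL KL001, 2.84 (SE 0.031, adjusted p = 2.59e-32) in siCop1 DMSO and 2.73 (SE 0.031, adjusted p = 7.77e-32) in siCop1 KL001. In each of the 4 settings this was the second smallest p of all 14772 genes. As a fold it ran from 6.15 in siCTRL KL001 to 7.15 in siCop1 DMSO.

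siCop1 lowered the level of Tsc22d3 in 3 of 4 settings. The log2 change with siCop1 was -0.33 (SE 0.032, adjusted p = 1.63e-09) in DMSO without Dexa, -0.22 (SE 0.028, adjusted p = 3.32e-07) in DMSO with Dexa and -0.17 (SE 0.032, adjusted p = 0.000171) in KL001 without Dexa. In KL001 with Dexa it was -0.06 (SE 0.028, adjusted p = 0.129) and did not pass. Of all genes 29.4%, 31.1%, 32.7% and 30.1% changed in these 4 contrasts, and 16.6%, 16.7%, 18.2% and 16.3% were lower, so that a call in them was common. KL001 also lowered Tsc22d3 in 3 of 4 settings, in contrasts where 6.73%, 10.6%, 4.09% and 5.46% of all genes changed (3.51%, 5.58%, 2.32% and 2.97% lower). In siCTRL with Dexa the replicate numbers met the rule for pairs, and a model of those groups with the replicate number as a block called 807 genes in place of 1560, with Tsc22d3 at -0.304 (adjusted p = 0.000461). The log2 change with KL001 was -0.20 (SE 0.032, adjusted p = 9.1e-05) in siCTRL without Dexa, -0.31 (SE 0.028, adjusted p = 8.78e-09, the 22nd smallest p) in siCTRL with Dexa. In siCop1 cells it was -0.03 without Dexa (SE 0.032, adjusted p = 0.725) and -0.14 with Dexa (SE 0.028, adjusted p = 0.00114). The 2 factors together gave a level close to the lower of the single ones: without Dexa the means were 87.2 CPM with KL001, 79.6 CPM with siCop1 and 77.8 CPM with both. The interaction of siCop1 and KL001, a contrast added after seeing the data, was 0.17 without Dexa (SE 0.045, adjusted p = 0.329) and 0.16 with Dexa (SE 0.040, adjusted p = 0.166), and did not pass. In these interactions 0% of genes changed without Dexa (982 at an unadjusted p below 0.05, and 14 by DESeq2) and 0.0677% with Dexa. By DESeq2 the value with Dexa was 0.165 with an adjusted p of 0.00689, past the threshold.

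The relatives and partners of Tsc22d3 moved by much less. Of the other 3 genes of the TSC22 domain family, Tsc22d2 fell with Dexa in siCTRL DMSO by 0.29 on the log2 scale, Tsc22d4 rose by 0.11 and Tsc22d1 was at -0.01 and did not pass. The call of Tsc22d4 was lost without siCTRL DMSO replicate 3 (0.104) or siCTRL DMSO Dexa replicate 1 (0.101), and in a model of the compared groups alone (0.117, adjusted p = 0.0595). With siCop1, Tsc22d2 and Tsc22d4 were lower in all 4 settings, from -0.30 to -0.19 and from -0.21 to -0.15 on the log2 scale. Among genes whose proteins GILZ is known to bind, Fos fell with Dexa in siCTRL DMSO by 0.67 on the log2 scale, Jun by 0.30 and Rela, the NF-kappaB subunit p65, by 0.17. The median over all genes tested was -0.00805. Jun, a component of AP-1 and a described Cop1 substrate, was higher with siCop1 in all 4 settings. The log2 change was 0.56 and 0.63 in DMSO without and with Dexa and 0.43 and 0.42 in KL001. These are mRNA values and do not show the level of the Jun protein. Of all genes tested 29.4% to 32.7% changed in the siCop1 contrasts.

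Klf9 had the smallest response of the 4 genes, between 1.89-fold and 2.18-fold. Without Dexa its libraries read 58.3, 65.4 and 65.1 CPM in siCTRL DMSO, 59.7, 50.9 and 57.0 CPM in siCTRL KL001, 57.6, 55.1 and 59.2 CPM in siCop1 DMSO and 56.6, 52.4 and 54.5 CPM in siCop1 KL001. With Dexa they read 115, 127 and 128 CPM, then 129, 119 and 118 CPM, then 108, 109 and 108 CPM, then 116, 112 and 113 CPM. The groups with Dexa did not overlap with those without it, while the 4 groups without Dexa overlapped with their neighbours in the order of means. The log2 change with Dexa was 0.97 (SE 0.052, adjusted p = 4.48e-15) in siCTRL DMSO, 1.13 (SE 0.052, adjusted p = 1.95e-16) in siCTRL KL001, 0.92 (SE 0.052, adjusted p = 2.45e-14) in siCop1 DMSO and 1.06 (SE 0.053, adjusted p = 1.15e-15) in siCop1 KL001. By size it ranked 384th of 14772 genes in siCTRL DMSO.

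With siCop1 Klf9 was lower in DMSO with Dexa, by -0.18 on the log2 scale (SE 0.050, adjusted p = 0.00504), with all 3 siCop1 libraries (108 to 109 CPM) below the 3 siCTRL libraries (115 to 128 CPM). In the other settings it did not pass, at -0.13 in DMSO without Dexa (SE 0.054, adjusted p = 0.0647), -0.04 in KL001 without Dexa (SE 0.055, adjusted p = 0.672) and -0.11 in KL001 with Dexa (SE 0.050, adjusted p = 0.114). Without siCTRL DMSO replicate 1, the lowest of its group, the value in DMSO without Dexa was -0.188 and passed (adjusted p = 0.0127), as it did without the filter on low counts (-0.125, adjusted p = 0.0473). The value in KL001 with Dexa passed without the filter (-0.115, adjusted p = 0.0483) and in a model of the compared groups alone (-0.1, adjusted p = 0.0209). KL001 gave -0.17 in siCTRL without Dexa (SE 0.055, adjusted p = 0.0591), -0.01 in siCTRL with Dexa, and in siCop1 cells -0.07 without and 0.06 with Dexa, none past the threshold. The first of these passed without the filter on low counts (-0.168, adjusted p = 0.0135). It was -0.224 without siCTRL DMSO replicate 1 (adjusted p = 0.0147) and -0.220 without siCTRL KL001 replicate 1 (adjusted p = 0.0166), past the threshold in both cases.

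Within the Krüppel-like family the response to Dexa went both ways. Of the 16 other members listed, 13 were tested, and in siCTRL DMSO 4 rose, 6 fell and 3 did not pass. Of all genes tested 26.8% changed in this contrast. Klf15, an activator of amino acid catabolism genes, rose by 2.38 on the log2 scale, Klf5 by 1.05 and Klf2, known for its role in endothelium, by 0.62. Klf11 was at -0.59, Klf10, a TGF-beta response gene, at -0.46 and Klf4, a pluripotency factor, at -0.36, all 3 changed. The family's median was -0.061. The log2 change of Klf5 with Dexa was smaller after siCop1, at 0.31 in DMSO and 0.30 in KL001 (interaction of -0.74 in DMSO, adjusted p = 0.0123, and -0.78 in KL001, adjusted p = 0.0086), where that of Klf9 was 0.92 and 1.06. Klf15 was lower with siCop1 in all 4 settings, from -0.90 to -0.81 on the log2 scale.

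Zbtb16 rose from a few CPM to a level of about 60 CPM that was nearly the same in all 4 groups with Dexa. Without Dexa the libraries read 3.50, 3.49 and 3.77 CPM in siCTRL DMSO, 3.07, 2.71 and 2.67 CPM in siCTRL KL001, 4.10, 2.92 and 3.59 CPM in siCop1 DMSO and 3.20, 2.93 and 2.35 CPM in siCop1 KL001. With Dexa they read 54.7, 66.3 and 65.3 CPM, then 67.1, 60.7 and 61.3 CPM, then 64.0, 61.9 and 60.7 CPM, then 63.9, 61.3 and 67.6 CPM. The 4 groups with Dexa overlapped with each other, and siCTRL DMSO Dexa replicate 1 was the lowest of the 12 libraries. The log2 change with Dexa was 4.11 (SE 0.092, adjusted p = 5.01e-24) in siCTRL DMSO, 4.48 (SE 0.096, adjusted p = 1.91e-24) in siCTRL KL001, 4.13 (SE 0.091, adjusted p = 4.95e-24) in siCop1 DMSO and 4.51 (SE 0.095, adjusted p = 1.43e-24) in siCop1 KL001. As a fold this was 17.3, 22.4, 17.6 and 22.8.

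Neither siCop1 nor KL001 changed Zbtb16 past the threshold in any setting. With siCop1 the log2 change was -0.02, 0.00351, 0.00182 and 0.03 (DMSO without and with Dexa, then KL001 without and with Dexa; adjusted p between 0.801 and 0.995). In the 2 contrasts with Dexa the 95% interval was narrow, from -0.115 to 0.122 in DMSO and from -0.0929 to 0.144 in KL001. Without Dexa, where the counts per library were 63 to 110, it was wider, from -0.310 to 0.271 in DMSO and from -0.321 to 0.324 in KL001. With KL001 the log2 change was -0.35 in siCTRL without Dexa (SE 0.157, adjusted p = 0.211) and -0.33 in siCop1 without Dexa (SE 0.156, adjusted p = 0.323), but 0.02 and 0.05 with Dexa (adjusted p = 0.865 and 0.792). In siCTRL the 3 KL001 libraries without Dexa lay below the 3 DMSO libraries, and in siCop1 the groups overlapped, but neither change passed.

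Of 12 other BTB zinc finger genes listed, 10 were tested. In siCTRL KL001 1 of these rose with Dexa and 3 fell, where 26.8% of all genes tested changed. In siCTRL DMSO 0 rose, 1 fell and 9 did not pass, where 12.7% of all genes tested rose. A list of 10 genes is too small to tell 0 from that share. The gene that fell was Zbtb46, a factor known from dendritic cells, at -0.37. Without siCTRL DMSO replicate 2 the number changed in this list was 2. Of 7 genes for the corepressors of PLZF and its ligase partner, 1 rose and 2 fell in siCTRL DMSO. There 26.8% of all genes tested changed. Cul3 rose by 0.11, and Sin3a, a corepressor scaffold, was among those that fell, by 0.12. The calls of Cul3 and Sin3a were lost in several fits without 1 library, with values from 0.083 to 0.105 for Cul3 (without siCTRL DMSO replicate 1 or siCTRL DMSO Dexa replicates 2 or 3) and from -0.107 to -0.082 for Sin3a (without siCTRL DMSO replicates 2 or 3 or siCTRL DMSO Dexa replicates 1 or 3). Both calls were also lost in a model of the compared groups alone (adjusted p = 0.104 for Cul3 and 0.0922 for Sin3a), and that of Sin3a without the filter on low counts (adjusted p = 0.0588). Without siCTRL DMSO Dexa replicate 3 only 1 gene of this list changed.

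Hif3a was barely detected without Dexa and stayed low with it. The raw counts without Dexa were 1, 3 and 1 in siCTRL DMSO, 0, 0 and 1 in siCTRL KL001, 0, 1 and 0 in siCop1 DMSO and 1, 1 and 1 in siCop1 KL001. With Dexa they were 81, 74 and 90, then 78, 78 and 78, then 42, 36 and 40, then 28, 40 and 22. In CPM the libraries with Dexa read 3.15, 3.25 and 3.59 in siCTRL DMSO, 3.11, 3.42 and 3.21 in siCTRL KL001, 1.70, 1.39 and 1.57 in siCop1 DMSO and 1.21, 1.55 and 1.02 in siCop1 KL001. Every siCop1 library with Dexa lay below every siCTRL library with Dexa.

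The size of the Hif3a induction could not be set precisely, because it is a ratio to 1 to 5 counts per group. The ratio of the counts summed over the 3 libraries with Dexa to those without, scaled by the summed library sizes, with its exact 95% interval, which covers counting error only, was 51.0 (21.6 to 159) in siCTRL DMSO, 246 (43.8 to 9766) in siCTRL KL001, 120 (21.1 to 4777) in siCop1 DMSO and 33.3 (11.04 to 165) in siCop1 KL001. No test of the induction is given, because Hif3a passed the filter on low counts only through the groups where it was high. These intervals overlap, so no order of the 4 ratios was detectable at this depth.

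The level of Hif3a with Dexa was lower with siCop1, by a log2 change of -1.10 in DMSO (SE 0.195, adjusted p = 5.29e-05) and -1.36 in KL001 (SE 0.203, adjusted p = 4.85e-06). The siCop1 level was 0.466 and 0.391 of the siCTRL level. Without Dexa the values with siCop1 rested on 1 to 5 counts and did not pass (adjusted p = 0.196 and 0.486). KL001 gave -0.04 in siCTRL with Dexa (SE 0.181, adjusted p = 0.943) and -0.29 in siCop1 with Dexa (SE 0.218, adjusted p = 0.573). The 3 siCTRL DMSO Dexa libraries, with summed heart muscle markers of 1.25, 90.6 and 0.797 CPM, read 3.15, 3.25 and 3.59 CPM of Hif3a. The part of these markers in the Hif3a level was not tested.

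Of the 9 genes for the other HIF subunits and the oxygen sensing enzymes, 2 rose, 2 fell and 5 did not pass with Dexa in siCTRL DMSO. Their median was -0.0589, and 26.8% of all genes tested changed in this contrast. Egln3, a prolyl hydroxylase, rose by 0.99 and Hif1a by 0.25. Arnt2, a dimer partner, was at -0.36 and Hif1an, the asparaginyl hydroxylase, at -0.14, both changed. Epas1 (-0.25), Egln1 (-0.09), Vhl (-0.06), Arnt (-0.01) and Egln2 (-0.01) did not pass. The call of Hif1an was lost without siCTRL DMSO replicate 2 (-0.104), siCTRL DMSO replicate 3 (-0.121) or siCTRL DMSO Dexa replicate 1 (-0.077), and in a model of the compared groups alone (-0.139, adjusted p = 0.0904). Of 15 hypoxia target genes 4 rose and 2 fell, with a median of 0.0859 over the list. Whether these lists differ from the 26.8% of all genes that changed was not tested. Bnip3, a mitophagy receptor, rose by 0.85, Adm, the vasodilator adrenomedullin, by 0.71 and Slc2a1, the glucose transporter GLUT1, by 0.44. Vegfa was at -0.24 and Ndrg1 at -0.16.

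The size of the Dexa induction was compared between siRNAs and between compounds with interaction terms. None passed the threshold for Tsc22d3, Klf9 or Zbtb16. For Hif3a the terms could not decide the question, because they rest on 1 to 5 counts per group without Dexa. Of all genes tested 0.67% changed for siCop1 by Dexa in DMSO, 0.562% in KL001 and 1.82% when both compounds were averaged. For KL001 by Dexa it was 0% in siCTRL (888 genes at an unadjusted p below 0.05, and 2 by DESeq2), 0.0677% in siCop1 and 0.183% when both siRNAs were averaged. Tsc22d3 came closest. Its induction was 0.11 higher on the log2 scale with siCop1 in DMSO (95% interval 0.0302 to 0.196, adjusted p = 0.439) and 0.11 higher in KL001 (0.0241 to 0.192, adjusted p = 0.465). Averaged over compounds it was 0.11 (SE 0.030, unadjusted p = 0.000993, adjusted p = 0.0532). This passed by DESeq2 (0.103, adjusted p = 0.0443) and without siCTRL DMSO replicate 1 (0.119, adjusted p = 0.0395), siCTRL KL001 Dexa replicate 1 (0.125, adjusted p = 0.0184) or siCop1 KL001 replicate 1 (0.120, adjusted p = 0.0424), that is, in 4 of 28 alternatives. With KL001 its induction was -0.11 on the log2 scale in both siRNAs and on average (95% interval of the average -0.167 to -0.0492, adjusted p = 0.239).

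For Tsc22d3 the direction of the values with siCop1 depended on the scale. The difference in CPM between libraries with and without Dexa was 562.6 ± 9.76 (SE) in siCTRL DMSO, 448.8 ± 11.1 in siCTRL KL001, 489.7 ± 2.88 in siCop1 DMSO and 437.3 ± 4.01 in siCop1 KL001. On that linear scale the gain with siCop1 was smaller in DMSO, while in KL001 the 2 gains were close relative to their SEs. The ratio was slightly larger with siCop1, since the level without Dexa was lower too. That difference in ratio did not pass (adjusted p = 0.439 in DMSO and 0.465 in KL001 by the quasi-likelihood test). The linear gains were not tested. For Zbtb16 the gain was nearly equal in the 4 settings, at 58.5, 60.3, 58.7 and 61.5 CPM in the same order. For Klf9 it was 60.2, 66.0, 51.1 and 58.8 CPM, and for Hif3a 3.26, 3.24, 1.54 and 1.22 CPM.

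For Klf9 the interaction with siCop1 was -0.05 in DMSO, -0.07 in KL001 and -0.06 on average (95% interval -0.163 to 0.0422, adjusted p = 0.84). With KL001 it was 0.16 in siCTRL, 0.14 in siCop1 and 0.15 on average (0.0435 to 0.248, adjusted p = 0.56). For Zbtb16 the interaction with siCop1 was 0.02 in both compounds and on average (-0.209 to 0.256, adjusted p = 0.989), and with KL001 0.37 in both siRNAs and on average (0.141 to 0.605, adjusted p = 0.39). For Hif3a the terms ran from -2.90 to 2.27 with SEs of 1.11 to 1.24, and are set by the few counts without Dexa. A term for all 3 factors was -0.00544 for Tsc22d3, -0.02 for Klf9 and 0.00112 for Zbtb16, and none of these passed. In that term 0% of genes changed (582 at an unadjusted p below 0.05, and 0 by DESeq2). For Hif3a it was -4.13 (SE 1.67), again set by the few counts without Dexa. Missing the threshold does not show that the inductions were equal. The averaged KL001 by Dexa intervals leave out 0 for Tsc22d3, Klf9 and Zbtb16, and that for Zbtb16 holds log2 differences up to 0.605. Their unadjusted p by the quasi-likelihood test was 0.00123, 0.00948 and 0.00392. In that term 915 genes had an unadjusted p below 0.05.

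**Figure D2:**
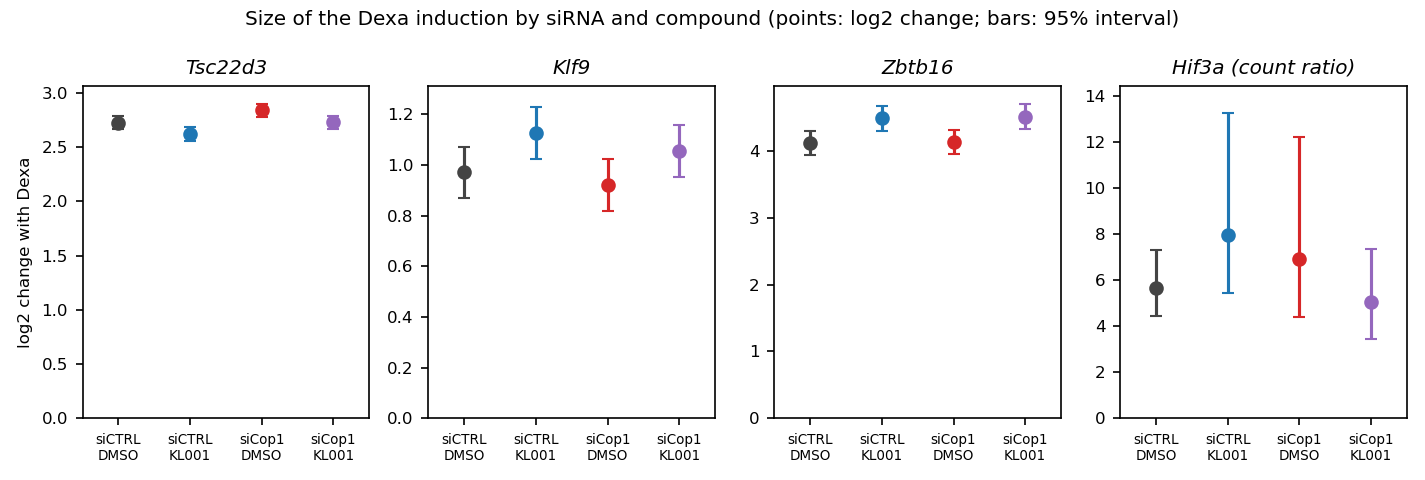
Log2 change with Dexa (vertical axes, starting at 0) for each gene in the 4 combinations of siRNA and compound. Points are fitted changes with 95% intervals for Tsc22d3, Klf9 and Zbtb16, and for Hif3a the log2 ratio of summed counts, scaled by the summed library sizes, with its exact counting interval. The points of each of the first 3 genes lie close together (2.62 to 2.84, 0.92 to 1.13 and 4.11 to 4.51), while the Hif3a intervals are wide and overlap.

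**Figure D3:**
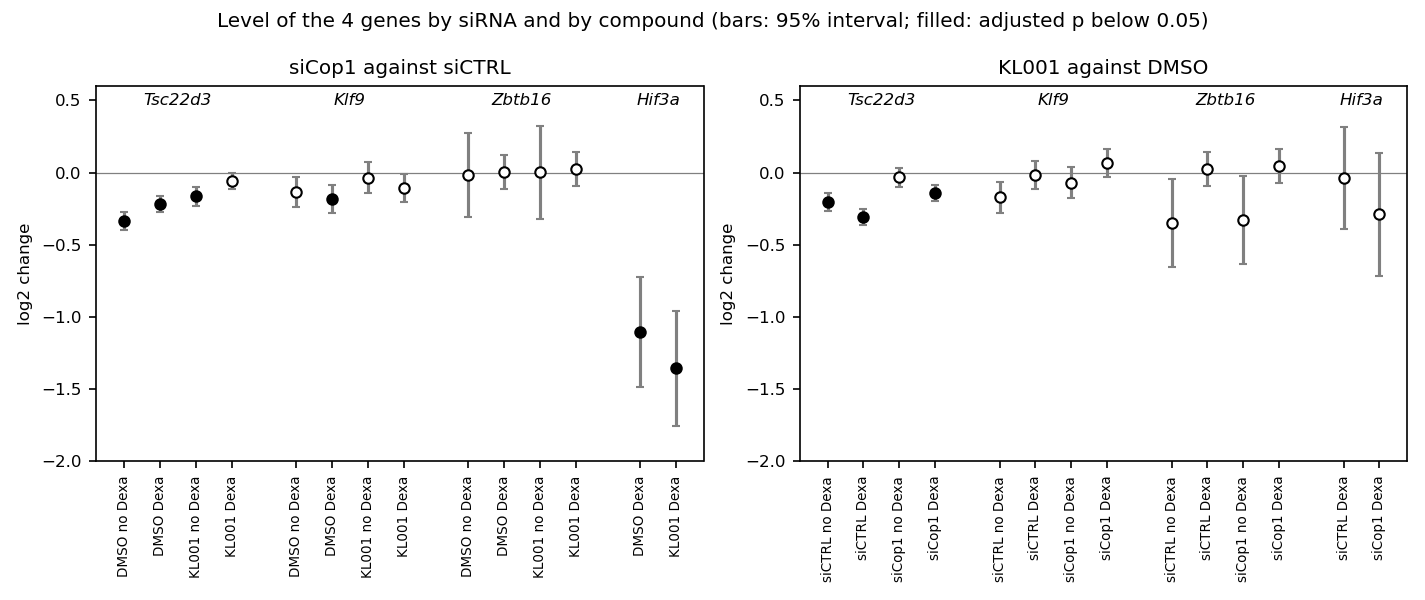
Log2 change of the level with siCop1 against siCTRL (left) and with KL001 against DMSO (right), in each setting given on the horizontal axis, with 95% intervals. Filled points have an adjusted p below 0.05. Hif3a is shown only with Dexa. Tsc22d3 has 3 filled points in each panel, Klf9 1 and Hif3a 2 in the left panel, and Zbtb16 none.

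The other glucocorticoid targets gave a broader view of the response. Of 24 listed target genes 22 rose with Dexa in siCTRL DMSO, 1 fell and 1 did not pass, with a median log2 change of 0.909. Of all genes tested 12.7% rose in this contrast. Fam107a, an actin-associated stress gene, rose by 6.70, Fkbp5, the co-chaperone that dampens receptor activity, by 4.30 and Pdk4, a brake on pyruvate oxidation, by 3.41. Angptl4, an inhibitor of lipoprotein lipase, was at -0.63. Of 9 other glucocorticoid-induced transcription regulators 6 rose, 2 fell and 1 did not pass: Cebpd rose by 2.75, Klf15 by 2.38 and Per1, a clock component, by 2.22, while Klf4 was at -0.36 and Foxo1 at -0.34. The receptor gene Nr3c1 was itself lower with Dexa, from -0.64 in siCTRL DMSO to -0.50 in siCop1 KL001, and showed no change past the threshold with siCop1 or KL001. Of 16 tested genes for the receptor, hormone handling and coregulators, 2 rose, 2 fell (Nr3c1 among them) and 12 did not pass. The 2 that rose were Fkbp5 and Hsd11b2, which inactivates glucocorticoids and rose by 1.87. The median was -0.0322. In that contrast 26.8% of all genes tested changed, and whether this list differs from that share was not tested.

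For some of these targets the interaction of siCop1 and Dexa passed the threshold. It did not pass for Tsc22d3 (adjusted p = 0.0532 when averaged over compounds), Klf9 or Zbtb16, and Hif3a had too few counts without Dexa to decide. Whether the targets differ from the 4 genes in this was not tested. Of the 24 target genes 6 had a smaller induction with siCop1 in DMSO and none a larger one, against 0.379% of all genes with a smaller one. The interaction was -0.76 for Fkbp5 (SE 0.048, adjusted p = 2.06e-11) and -0.88 for Errfi1, a feedback inhibitor of EGF receptor signalling (adjusted p = 2.28e-11). In KL001 it was 5 of 24, against 0.298% of all genes, with -0.64 for Fkbp5 and -0.79 for Errfi1. The Fkbp5 level without Dexa was higher with siCop1, by 0.48 in DMSO and 0.41 in KL001. With Dexa it was lower with siCop1, at -0.29 and -0.23. With siCop1 and Dexa in DMSO, 16 of the 24 were lower and 2 higher than with siCTRL and Dexa, with a median of -0.173 against 0.00142 over all genes tested, where 16.7% of genes were lower and 14.4% higher. The levels of Tsc22d3, Klf9 and Hif3a were lower in the same contrast. Of the 9 other regulators 5 were lower and 2 higher. These contrasts share their control libraries, and the lists were chosen with results of these data known.

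**Figure D4:**
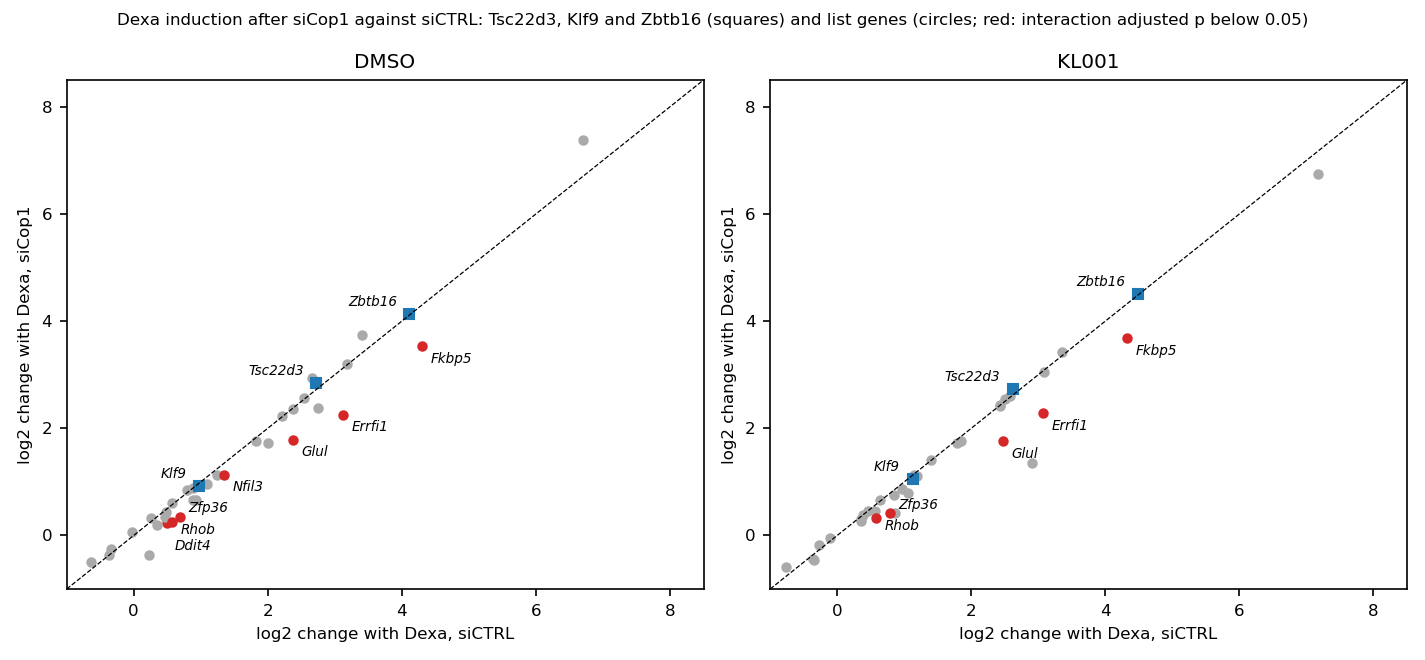
Log2 change with Dexa after siCop1 (vertical axis) against that after siCTRL (horizontal axis), in DMSO (left) and KL001 (right), for Tsc22d3, Klf9 and Zbtb16 (blue squares) and the listed target genes and transcription regulators (circles; red where the siCop1 by Dexa interaction had an adjusted p below 0.05). The dashed line marks equal changes. The 3 squares lie close to the line, while Fkbp5 and Errfi1 lie below it; Hif3a is left out because its change rests on 1 to 5 counts.

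The genes whose profile over the 8 groups was most like that of each regulator were found as the smallest root-mean-square difference in log2 level after centring, among 11605 genes. For Tsc22d3 they were Cebpd (0.158), Ctgf (0.184) and Psd4 (0.198). Ctgf, a secreted matricellular protein gene, rose with Dexa from 164.8 to 1099 CPM in siCTRL DMSO. For Klf9 they were Foxo3 (0.0395), a forkhead factor, Ehd4 (0.0543) and Aldh6a1 (0.0789), with Foxo3 going from 69.0 to 146.5 CPM. For Zbtb16 they were Aldh1a7 (0.224), Fkbp5 (0.263) and Clca3a1 (0.275). For Hif3a they were Aldh1a7 (0.392), Fkbp5 (0.483) and Serpina3m (0.490), the last with 0 CPM in siCTRL DMSO without Dexa and 4.14 CPM with it. The profile differences are larger for Zbtb16 and Hif3a, whose own log2 range over the groups is 4.48 and 5.22, than for Klf9, with a range of 1.17. A like profile did not mean a like siCop1 by Dexa interaction. In DMSO it was -0.76 for Fkbp5 and -0.42 for Ctgf, both past the threshold, against 0.02 for Zbtb16 and 0.11 for Tsc22d3. The other like genes did not pass there, and Serpina3m had no value.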

How the data were processed

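Libraries were prepared from 500 ng of RNA with a stranded mRNA kit and sequenced as single reads of 50 bases on 3 lanes, per the labels' protocols. The authors deposited a table of raw counts per gene for the 24 libraries, and the submitters' processing notes name bcl2fastq 1.8.4, STAR 2.4.5a, featureCounts, Subread 1.4.6-p3, Picard 1.126, DESeq2 and build GRCm38 (mm10), without giving their roles. A second deposited table held normalized signal, which was the counts divided by 1 size factor per library and was not tested.

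From the counts, edgeR 4.0.16 (R 4.3.3, limma 3.58.1) was run on all 24 libraries with 1 mean per group, TMM scaling, genes kept at a minimum count of 10 and a minimum total of 15 (filterByExpr), and the robust quasi-likelihood test. Of 47480 genes 28837 had a count and 14772 were tested. P-values were two-sided and adjusted by Benjamini-Hochberg over all 14772 genes for each of 19 contrasts, plus 2 added after seeing the data (siCop1 by KL001). Log2 fold changes carry no shrinkage, the SE is derived from the F statistic, and 95% intervals are normal intervals from that SE. Library totals of 21409988 to 27875023 counts put Zbtb16 without Dexa at 63 to 110 counts and Hif3a at 0 to 3, which limits both. Alternatives were RLE scaling, no filter, DESeq2 1.42.0, a replicate block, a model of the compared groups alone, a prior count of 2 and leaving out each library. Profiles were compared over genes with a mean of at least 1 CPM and a prior count of 2. The members and gene lists were chosen with earlier results of these data known. Genes named beside the members were, by rule, all of the TSC22, partner and HIF lists, up to 3 higher and 3 lower of every other list with the largest change with Dexa in siCTRL DMSO, up to 2 per list with the smallest p in each interaction, the 3 most like profiles per member, Nr3c1 and Rfwd2. Some genes that this rule names are not reported here. The plot of list genes also labels the others whose interaction passed. Same-numbered libraries were taken as pairs where every correlation of their deviations from the group means was over 0.1, which held for 2 of 12 contrasts between 2 groups, Dexa in siCTRL KL001 (0.165 to 0.464) and KL001 in siCTRL with Dexa (0.167 to 0.368). The pairing is a pattern in the data and is not stated in the labels, and a replicate block within those groups was added after seeing the data.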

Additional observations from a re-analysis of the deposited data

Results flagged for a closer look

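By the quasi-likelihood test of edgeR (Benjamini-Hochberg), Tsc22d3, Klf9 and Zbtb16 had no interaction with Dexa past the threshold. For Hif3a the counts without Dexa were too few to decide. The following genes from the lists around the 4 regulators had such an interaction by the same test. Their response to Dexa differed between siRNAs or between compounds. Each value is the difference in log2 change with Dexa.

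Fkbp5, which encodes a receptor co-chaperone, had a smaller log2 change with Dexa after siCop1. The difference was -0.76 in DMSO (adjusted p = 2.06e-11), -0.64 in KL001 (adjusted p = 1.01e-09) and -0.70 on average (adjusted p = 1.29e-14). Its level without Dexa was higher with siCop1, by 0.48 on the log2 scale in DMSO and 0.41 in KL001. With Dexa the Fkbp5 level was lower with siCop1, at -0.29 and -0.23. Errfi1, the feedback inhibitor of EGF receptor signalling, responded less with siCop1, by -0.88 in DMSO (adjusted p = 2.28e-11), -0.79 in KL001 (adjusted p = 7.53e-10) and -0.83 on average (adjusted p = 1.29e-14). Klf5, a relative of Klf9, gave -0.74 in DMSO (adjusted p = 0.0123), -0.78 in KL001 (adjusted p = 0.0086) and -0.76 on average (adjusted p = 5.18e-05). The Klf5 value in DMSO missed the threshold without siCTRL DMSO replicate 1 (-0.652), siCop1 DMSO replicate 2 (-0.694) or siCop1 DMSO replicate 3 (-0.677). Klf2, another relative, gave -0.28 on average (adjusted p = 0.0229), and missed it without siCTRL KL001 replicate 3 (-0.266), siCTRL KL001 Dexa replicate 1 (-0.253) or siCop1 KL001 replicate 3 (-0.231). Egln3, the prolyl hydroxylase that acts on HIF alpha subunits, gave -0.34 on average (adjusted p = 0.00497), and Slc2a1, a glucose transporter and hypoxia target, -0.15 (adjusted p = 0.0176). Nfil3, a bZIP repressor, gave -0.22 for siCop1 in DMSO (adjusted p = 0.0278), which passed in 9 of 17 alternatives.

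Between compounds, Per1, a clock repressor, responded more with KL001, by 0.21 averaged over siRNAs (adjusted p = 0.00422, past the threshold in 28 of 28 alternatives). Nfil3 gave 0.28 for KL001 in siCop1 cells (adjusted p = 0.0192, past it in 7 of 17) and 0.16 on average (adjusted p = 0.049, past it in 4 of 28). Hsd11b2, the enzyme that inactivates glucocorticoids, gave -0.56 on average (adjusted p = 0.048), past the threshold in 8 of 28 alternatives with values from -0.636 to -0.509.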

How the results depend on the processing

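Each value was recomputed with 1 choice changed, and the Dexa inductions of Tsc22d3, Klf9 and Zbtb16 passed the threshold in every alternative with a test. With a prior count of 2 the Hif3a induction was 4.553, 5.159, 4.134 and 3.517 (siCTRL DMSO, siCTRL KL001, siCop1 DMSO, siCop1 KL001), its 3-factor term -1.223 and its siCop1 by KL001 term without Dexa 0.990. Hif3a had no value in 18 cases where leaving out a library left a group at 0 counts. By DESeq2 the averaged siCop1 by Dexa term of Tsc22d3 was 0.103 and its siCop1 by KL001 term with Dexa 0.165, both past the threshold. Values near 0 turned sign: without the filter on low counts Zbtb16 gave -0.001 for siCop1 in DMSO with Dexa and -0.004 for the 3-factor term, and with RLE scaling the Tsc22d3 3-factor term was 0.000. The causes were not tested. Depth limits Hif3a without Dexa, at 0 to 3 counts per library.

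Counts of genes past the threshold moved as follows. Without the filter there were 230 and 156 for siCop1 by Dexa in DMSO and KL001, 133, 43 and 79 for KL001 by Dexa in siCTRL, in siCop1 and on average, 30 for the 3-factor term, and 61 and 59 for siCop1 by KL001 without and with Dexa. On only the groups compared there were 225 for KL001 in siCTRL without Dexa, 950 and 1435 for KL001 in siCop1 without and with Dexa, 52 for siCop1 by Dexa in KL001 and 24 for KL001 by Dexa in siCop1. DESeq2 called 2 for KL001 by Dexa in siCTRL, and 14 and 25 for siCop1 by KL001 without and with Dexa, and RLE scaling left 5 for KL001 by Dexa in siCop1.

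With the replicate block there were 5 for KL001 by Dexa in siCop1 and 5 for siCop1 by KL001 with Dexa. Over all groups, 19 of 84 pairs of libraries with the same number had correlated deviations over 0.1 (range -0.29 to 0.464), and 0 libraries were closest to their own number in every other group. In the 2 contrasts where every pair was over 0.1, a block within the compared groups gave 3332 genes for Dexa in siCTRL KL001 and 807 for KL001 in siCTRL with Dexa, and it changed no call of the 4 regulators.

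Leaving out 1 library at a time gave the following lowest and highest values. Counts ran from 15 to 33 for KL001 by Dexa on average, 1 to 7 in siCop1 and 0 to 3 in siCTRL, from 502 to 611 for KL001 in siCop1 with Dexa, from 928 to 1416 and 653 to 1165 for KL001 in siCTRL with and without Dexa, from 43 to 94 for siCop1 by Dexa in KL001, and from 2 to 10 and 0 to 6 for siCop1 by KL001 with and without Dexa. Tsc22d3 ran from 0.086 to 0.125 for siCop1 by Dexa on average and from -0.023 to 0.025 for the 3-factor term. Klf9 ran from -0.119 to 0.003 for siCop1 by Dexa in DMSO, -0.073 to 0.043 for the 3-factor term, -0.068 to 0.013 for KL001 in siCTRL with Dexa and -0.098 to 0.015 for siCop1 in KL001 without Dexa. Zbtb16 ran from -0.064 to 0.073 for KL001 in siCTRL with Dexa. For siCop1 it ran from -0.145 to 0.103 and -0.091 to 0.046 in DMSO without and with Dexa, and from -0.096 to 0.121 and -0.012 to 0.073 in KL001. For siCop1 by Dexa it ran from -0.1 to 0.148 in DMSO, -0.096 to 0.121 in KL001 and -0.038 to 0.086 on average, for the 3-factor term from -0.124 to 0.124, and for siCop1 by KL001 from -0.102 to 0.146 without and -0.024 to 0.112 with Dexa. Hif3a ran from -0.186 to 0.516 for KL001 by Dexa on average and from -0.079 to 0.022 for KL001 in siCTRL with Dexa. The Dexa change in siCTRL DMSO ran from -0.046 to 0.017 for Arnt, -0.040 to 0.036 for Egln2, -0.025 to 0.024 for Tsc22d1 and -0.078 to 0.003 for Vhl.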
